A study of Mus musculus with 27 samples.

Results

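Expression of 5 genes was followed through 15 RNA-seq libraries of mouse lumbar dorsal root ganglia: Cebpa, Cebpb, Cebpd and Cebpg, which encode members of the C/EBP family, and Hes1, which encodes a transcriptional repressor. They are 5 of the 55367 gene symbols of the ganglion table. The set was chosen by measured values, because Cebpd and Hes1 were lower in injured ganglia given RU521 than in injured ganglia without it; the other 3 genes were taken as family members of Cebpd. The comparison of RU521 with injury alone is therefore given for these 5 genes as values, with no test. For the 5 genes the same holds in each comparison that uses the injured wild-type libraries of that choice, while other genes carry the test of the fit over all genes.

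C/EBP proteins bind DNA as dimers through a basic region followed by a leucine zipper, and family members pair with one another. C/EBPα, C/EBPβ and C/EBPδ activate genes of the acute-phase response and of fat and myeloid cell differentiation, and Cebpd is known as a gene that cytokines and glucocorticoids switch on quickly. C/EBPγ lacks a strong activation domain and works mainly through its partners. Hes1 is a basic helix-loop-helix repressor, a classical target of Notch signalling that recruits corepressors of the TLE family and restrains proneural genes.

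The series asked how loss of Ptpn2, a tyrosine phosphatase that restrains JAK-STAT signalling, and the cytokine IFNγ bear on axon regeneration. The ganglion experiment had 5 groups of 3 libraries: wild type after sham surgery, wild type after sciatic nerve injury, Ptpn2 knockout (KO) after sham surgery, Ptpn2 knockout after sciatic nerve injury, and wild type after sciatic nerve injury with RU521. RU521, an inhibitor of the DNA sensor cGAS, was injected into the sciatic nerve, and tissue was taken 3 days after injury. The labels give the tissue as L4-L5 ganglia, while the series text calls it nerve, and sample titles call the sham groups intact. A second experiment had 4 groups of 3 libraries of picked retinal ganglion cells, collected 3 days after optic nerve injury: wild type with PBS, wild type with IFNγ, Ptpn2 knockout with PBS and Ptpn2 knockout with IFNγ, all from Ptpn2 flox mice given AAV-Cre or AAV-GFP in the eye 2 weeks before injury. No vehicle injection is named for the injured wild-type ganglia, and what drove the knockout in ganglia, and the age and number of mice behind a library, were not stated in the text consulted here. P-values therefore measure the spread between libraries, which may be technical.

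Levels are given as CPM, counts scaled to a common library total by the TMM method. Total counts per ganglion library lay between 14813365 and 22414750, with 26235 to 34340 genes detected. Wild-type sham replicates 1 and 3 stood apart, with 26235 and 26802 detected genes and 4.87% and 6.52% mitochondrial counts, against 34115 genes and 15.2% in sham replicate 2. RU521 replicate 1 was nearest to them, with 28803 genes and 7.83%. For the 5 genes, results that rest on the wild-type sham group are given below with and without these libraries; for the gene lists and markers only the values with all libraries are given. Ptpn2 itself read 10.5 to 15.8 CPM in knockout sham and 11.6 to 19.3 CPM in wild-type sham ganglia, ranges that overlap. The counts sum all exons, so this does not check the genotype. Defining markers of sensory neurons, satellite glia and Schwann cells were present in every group, as the tissue label implies, and no listed marker was at 0 in all libraries.

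The basic region is where the family members are most alike, and it bears on whether reads of one gene could be counted for another. The 60 coding bases of Cebpd that encode its core are shown with the matching stretch of each of the other 3 genes. Capitals mark a base that is the same as in Cebpd. The sequences are from the GRCm38 genome with GENCODE M21 gene models, 5′ to 3′ on the coding strand.
Cebpd: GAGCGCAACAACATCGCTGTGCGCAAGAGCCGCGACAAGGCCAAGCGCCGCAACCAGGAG
Cebpb: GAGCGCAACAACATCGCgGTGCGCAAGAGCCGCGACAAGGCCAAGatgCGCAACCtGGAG
Cebpa: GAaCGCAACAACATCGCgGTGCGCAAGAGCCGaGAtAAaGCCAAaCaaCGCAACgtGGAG
Cebpg: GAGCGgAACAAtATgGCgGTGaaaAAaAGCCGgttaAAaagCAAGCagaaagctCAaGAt

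The Cebpd stretch lies at chr16:15887919-15887978 on the plus strand, that of Cebpb at chr2:167689709-167689768 (plus), that of Cebpa at chr7:35120289-35120348 (plus) and that of Cebpg at chr7:35050570-35050629 (minus). Cebpb shared 91.7% of these bases with Cebpd, Cebpa 83.3% and Cebpg 58.3%. Over the whole coding sequences the longest run shared by any pair was 29 bases, between Cebpa and Cebpb, and Cebpb and Cebpd shared a run of 27 bases. Reads had 100 cycles from each end, longer than any shared run. Hes1, from a different family, shared at most 13 coding bases in a row with any of the 4.

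Cebpa, Cebpb and Cebpd each consist of a single exon. Cebpd spans chr16:15887286-15891031 (plus strand, 3746 bp of exon) and Hes1 lies on the same chromosome at chr16:30064384-30067796 (plus, 2037 bp of exon). Cebpa is at chr7:35119293-35121928 (plus, 2636 bp) and Cebpg, its neighbour, at chr7:35046422-35056573 (minus, 5621 bp of exon). Cebpb is at chr2:167688915-167690418 (plus, 1504 bp). Counting ignored strand, and 562 exon bases of Cebpd overlap Spidr, a DNA repair gene on the opposite strand. Spidr ranged from 6.89 to 17.5 CPM with RU521 and from 16.7 to 21.8 CPM in injured wild type, so its own range overlapped between these groups. Likewise 312 exon bases of Cebpb overlap Tmem189, which had 9846 counts over all 15 libraries.

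To compare genes with each other, levels are given in this paragraph as TPM, a scale that also divides by gene length. By this measure, Cebpd had the highest mean of the 4 C/EBP genes after injury, clearly so in wild type only. In injured wild type its mean level was 25.9 TPM, next to 11.6 TPM for Cebpg, 4.10 TPM for Cebpa and 0.806 TPM for Cebpb. Hes1 stood at 27.8 TPM. In injured knockout Cebpd was at 15.75 ± 9.29 TPM (SD, n = 3) and Cebpg at 14.2 TPM. Within that group's replicate 1 Cebpd, at 5.19 TPM, was below Cebpg, at 14.7 TPM. In wild-type sham ganglia Cebpg, at 11.7 TPM, was above Cebpd, at 5.76 TPM, and Hes1 was at 23.4 TPM. With RU521 the order changed again: Cebpg stood at 14.1 TPM, Hes1 at 4.91, Cebpa at 4.14, Cebpd at 2.14 and Cebpb at 0.639 TPM. Of the 4 C/EBP genes followed, Cebpg was thus the most abundant per length in sham and RU521 ganglia, by mean. Cebpe, another C/EBP gene, was not ranked. All 5 genes had counts in 15 of 15 ganglion libraries and passed the filter on low counts.

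Cebpd was high in injured wild type and low with RU521. It read 43.4, 40.3 and 36.8 CPM in the injured wild-type libraries 1 to 3, from 571 to 731 counts each. With RU521 it read 2.85, 3.03 and 3.44 CPM, from 48 to 55 counts. Each of the 3 RU521 libraries was therefore below each injured wild-type library, and the lowest injured value was 10.7 times the highest RU521 value. The RU521 libraries held 7.10%, 7.53% and 8.57% of the injured wild-type mean. The group means were 40.2 ± 3.30 and 3.11 ± 0.302 CPM (SD, n = 3), a 12.9-fold difference, with a fitted log2 difference of −3.69 ± 0.64 (SE).

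Hes1 was also lower in each RU521 library, with a wider spread. Its level was 22.5, 21.8 and 26.0 CPM in injured wild type, from 369 to 403 counts. In RU521 libraries 1 to 3 it was 6.66, 3.03 and 1.69 CPM, from 112, 48 and 27 counts. The 2 groups did not overlap, and the lowest injured library was 3.28 times the highest RU521 library. The RU521 libraries held 28.4%, 12.9% and 7.20% of the injured mean, so the size of the difference depended on the library. The means were 23.4 ± 2.22 and 3.79 ± 2.57 CPM (SD, n = 3). The fitted log2 difference was −2.62 ± 0.57 (SE), a 6.16-fold difference. Without RU521 replicate 1, the highest RU521 library and the one with fewest detected genes, the fitted difference was −3.31.

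**Figure D1:**
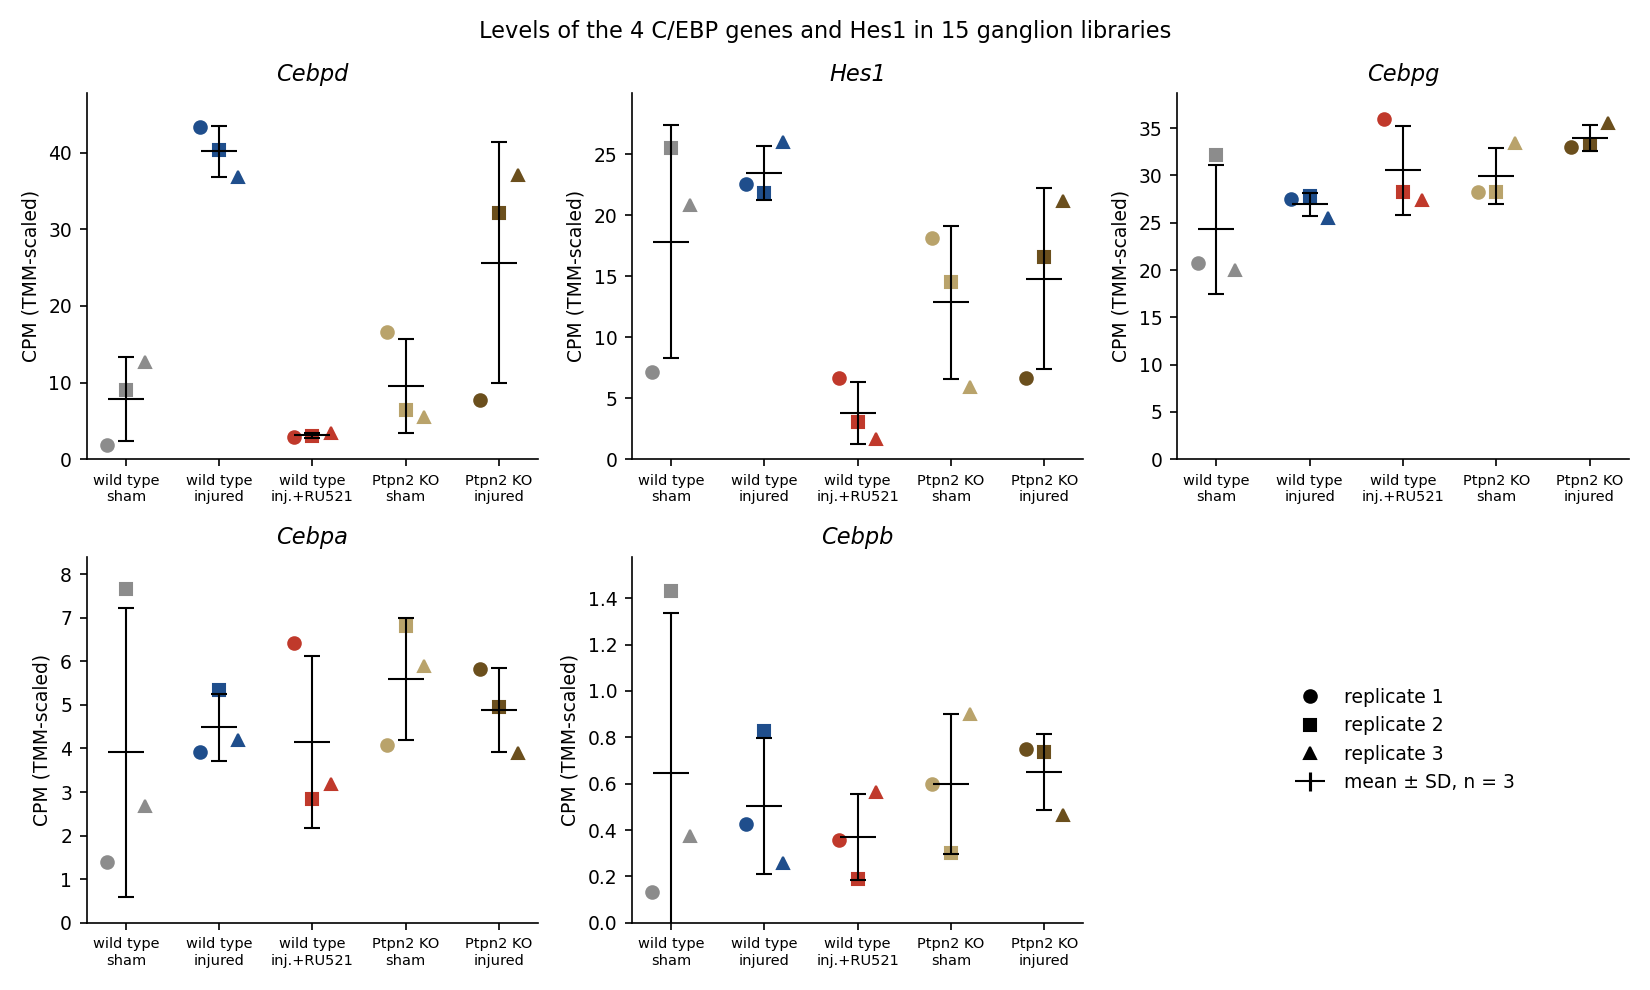
Levels of Cebpd, Hes1, Cebpg, Cebpa and Cebpb (vertical axes, TMM-scaled CPM, each from 0) in 15 ganglion libraries of 5 groups; symbols are replicates, black bars the mean ± SD of 3, and the lower bar of Cebpb in wild-type sham is cut at 0. Cebpd stays at 2.85 to 3.44 CPM in all RU521 libraries against 36.8 to 43.4 CPM in injured wild type, while Cebpg, Cebpa and Cebpb overlap between these groups.

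The other C/EBP genes showed no such separation. Cebpg was 27.5, 27.8 and 25.5 CPM in injured wild type and 35.95, 28.3 and 27.4 CPM with RU521, a fitted log2 difference of 0.18 ± 0.18 (SE). Cebpa was 3.91, 5.35 and 4.19 CPM against 6.42, 2.84 and 3.19 CPM, a difference of −0.11 ± 0.48. Both pairs of groups overlapped. Cebpb was close to the limit of detection, with 3 to 23 counts per library over the 15 libraries. It read 0.427, 0.827 and 0.258 CPM in injured wild type and 0.357, 0.189 and 0.563 CPM with RU521. Its fitted difference of −0.45 ± 0.81 leaves a wide range of sizes possible at this depth. Thus 2 of 5 genes did not overlap between the groups, the 2 for which the set was chosen. The share of all genes without overlap was not counted in any comparison, and the share called is a different measure. Over all 18517 genes tested in this comparison, 9.58% were called, that is, passed edgeR's test at an adjusted p under 0.05, 5.1% higher and 4.48% lower with RU521; nothing is read from the members' count, since the rule used this contrast.

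Set against the wild-type sham libraries, Hes1 with RU521 lay below their range by a narrow margin, and Cebpd did not. Wild-type sham libraries 1 to 3 read 7.15, 25.5 and 20.8 CPM for Hes1, so the highest RU521 library, at 6.66 CPM, was just under the lowest sham library. Knockout sham replicate 3, at 5.89 CPM, lay within the RU521 range of Hes1. For Cebpd, sham libraries read 1.92, 9.03 and 12.7 CPM, and the RU521 values fell between the first and the second of these. Sham replicate 1, one of the 2 libraries with few detected genes, was the lowest sham library for both genes. RU521 libraries held 36.2% to 43.6% of the sham mean for Cebpd and 9.48% to 37.3% for Hes1.

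In wild type, Cebpd did not overlap between sham and injury, while Hes1 did. The 36.8 to 43.4 CPM of Cebpd after injury did not overlap the 1.92 to 12.7 CPM after sham, and the lowest injured library was 2.89 times the highest sham library. The fitted log2 difference was 2.36 ± 0.59 (SE). For Hes1 it was 0.40 ± 0.52, with sham replicate 2 at 25.5 CPM reaching the injured range. Cebpa (0.21 ± 0.48), Cebpb (−0.31 ± 0.78) and Cebpg (0.15 ± 0.18) overlapped between sham and injury. These values are descriptive, because the injured wild-type libraries entered the choice of genes. Over all genes, 16.6% were called in this comparison, 8.6% higher and 7.98% lower after injury. With only sham replicate 2 in the sham group, the log2 difference of Cebpd was 2.20 and that of Hes1 −0.08, and those of Cebpa, Cebpb and Cebpg became −0.72, −1.43 and −0.21; that lone library is assumed to vary like the other groups. Without sham replicate 2 Cebpd was 2.46 and Hes1 0.74, and Cebpa, Cebpb and Cebpg were 1.14, 1.01 and 0.39.

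The knockout libraries did not enter the choice, so injury in the knockout could be tested, and none of the 5 genes passed. Cebpd read 16.6, 6.45 and 5.55 CPM in knockout sham libraries 1 to 3 and 7.77, 32.1 and 37.1 CPM in injured knockout libraries 1 to 3. Injured replicates 2 and 3 were above every sham library, and injured replicate 1 was below sham replicate 1, so the groups overlapped. The fitted log2 difference was 1.42 ± 0.58, with a raw p of 0.0263 and an adjusted p of 0.134 (edgeR's quasi-likelihood test, Benjamini-Hochberg over all genes). With no filter on low counts the difference was 1.39 and passed, with an adjusted p of 1.02e-06.

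Hes1 in the knockout was 18.1, 14.5 and 5.89 CPM after sham and 6.64, 16.5 and 21.2 CPM after injury. The 2 groups covered nearly the same range. The log2 difference was 0.20 ± 0.52, with an adjusted p of 0.864 in edgeR's test, and it became −0.18 without knockout sham replicate 3 and −0.16 without injured replicate 3. Cebpa (−0.19, adjusted p 0.855), Cebpb (0.13, 0.949) and Cebpg (0.18, 0.584) did not pass in edgeR's test either. In this comparison 10.9% of all genes were called, 6.34% higher and 4.57% lower after injury, against 0 of 5 members. By raw p under 0.05 the count was 1 (Cebpd), and DESeq2 and limma-voom each called 0. Whether the injury difference of Cebpd differs between wild type and knockout was not tested.

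Injured knockout replicate 1 and wild-type sham replicate 1 were the lowest of their groups in both Cebpd and Hes1. Knockout sham replicate 3 was the lowest of its group too, for Cebpd close to replicate 2 (5.55 and 6.45 CPM). Hes1 in injured knockout replicate 1, at 6.64 CPM, was close to the highest RU521 library, at 6.66 CPM, from 106 and 112 counts. Cebpd in the same library, at 7.77 CPM, stayed above all RU521 libraries. Low Hes1 levels were thus also found outside the RU521 group.

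Genotype alone made no difference that passed. After sham surgery 0 of 5 members were called by edgeR and 0 had a raw p under 0.05, next to 0.135% of all genes called; DESeq2 called 0 members and limma-voom called 2. The log2 difference of knockout from wild type was 0.28 ± 0.58 for Cebpd (adjusted p 0.927, edgeR) and −0.46 ± 0.52 for Hes1 (adjusted p 0.859, edgeR). For Cebpg it was 0.30 ± 0.18 (adjusted p 0.681, edgeR), for Cebpa 0.53 ± 0.48 (0.809) and for Cebpb −0.08 ± 0.78 (0.991). The direction of Cebpd turned without wild-type sham replicate 1 (−0.18) and without knockout sham replicate 1 (−0.39). Without wild-type sham replicate 2, Cebpa (1.47, adjusted p 0.0477) and Cebpg (0.56, adjusted p 0.0385) passed edgeR's test as higher in the knockout, the same 2 genes that limma-voom called. The limma-voom fit weighted libraries by quality and its weights were not examined, so the 2 fits are not taken as separate evidence. With only wild-type sham replicate 2 in its group the differences of Cebpa and Cebpg were −0.43 and −0.07.

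After injury, as a description, Hes1 in the knockout (6.64, 16.5 and 21.2 CPM) lay under the wild-type range of 21.8 to 26.0 CPM by a narrow margin, a ratio of 1.03 between the nearest libraries. Its log2 difference was −0.67 ± 0.52. Cebpg went the other way without overlap, at 33.1, 33.3 and 35.5 CPM in the knockout and 25.5 to 27.8 CPM in wild type, a difference of 0.33 ± 0.18. Cebpd overlapped, because injured knockout replicate 3 at 37.1 CPM exceeded wild-type replicate 3 at 36.8 CPM, with a difference of −0.65 ± 0.56. Cebpa (0.13 ± 0.48) and Cebpb (0.35 ± 0.78) overlapped too. Over all genes, 2.2% were called in this comparison, which is not the share without overlap.

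**Figure D2:**
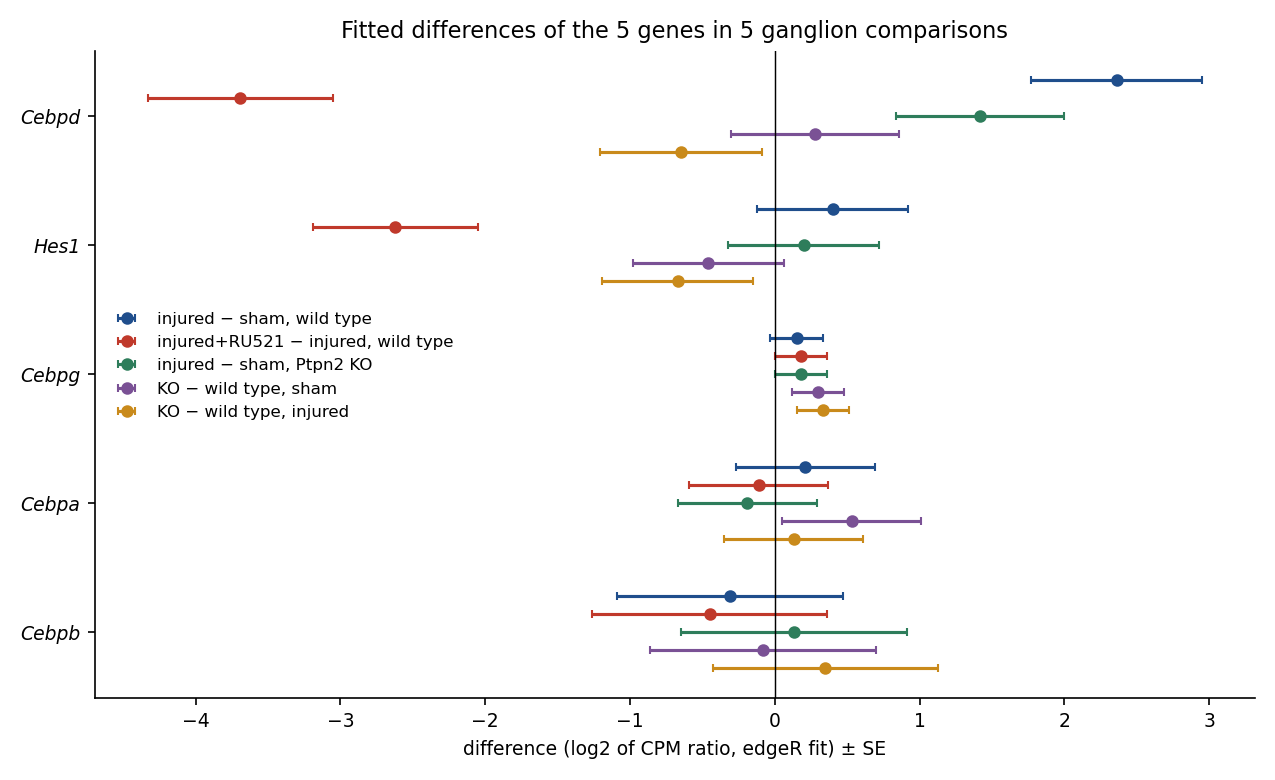
Fitted log2 differences (horizontal axis, edgeR, ± SE) of the 5 genes (vertical axis) in 5 ganglion comparisons, 3 libraries a group. The RU521 values of Cebpd (−3.69) and Hes1 (−2.62) lie far left of 0, Cebpd lies at 2.36 and 1.42 for injury in wild type and knockout, and the values of the other 3 genes lie within 0.53 of 0; several comparisons share libraries.

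Ordered by mean CPM, Cebpd ran from injured wild type (40.2) through injured knockout (25.7), knockout sham (9.52) and wild-type sham (7.89) to RU521 (3.11). Every pair of neighbours in that order overlapped in range, the last pair through sham replicate 1 alone. Hes1 ran from injured wild type (23.4) through wild-type sham (17.8), injured knockout (14.8) and knockout sham (12.9) to RU521 (3.79). Its neighbours also overlapped in range. Cebpg ran from injured knockout (33.9) through RU521 (30.5) and knockout sham (30.0) to injured wild type (27.0) and wild-type sham (24.3), and only knockout sham and injured wild type, as neighbours, did not overlap. For Cebpa, between 3.91 and 5.59 CPM by group mean, and Cebpb, between 0.370 and 0.650 CPM, all neighbours overlapped.

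The spread within groups differed between the genes and bears on these orders. Cebpd had a coefficient of variation of 8.21% in injured wild type and 9.73% with RU521 but 61.2% in injured knockout. Hes1 varied by 9.49% in injured wild type and by 67.8% with RU521. Cebpg varied by 3.99% in injured knockout, 15.4% with RU521 and 27.9% in wild-type sham.

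Across the 15 libraries, Cebpd and Hes1 had a Pearson correlation of log2 CPM of 0.78, a description in which group differences and library quality both enter. Cebpg had 0.11 with Cebpd and −0.07 with Hes1, and 0.74 with Cebpa. The 5 genes most like Cebpd, of 11426 compared, were Tram1 (r = 0.951), Gps2 (0.935), Oaf (0.935), Rab5if (0.927) and Pxdc1 (0.92). Those most like Hes1 were Tmem160 (0.967), Pcbd2 (0.962), Eif3j1 (0.957), Mospd3 (0.955) and Bloc1s4 (0.953). None of the 10 is a C/EBP or HES gene.

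These 10 genes were also lower with RU521, by less than Cebpd. Oaf, for one, was 43.8, 38.3 and 38.8 CPM in injured wild type and 8.08, 6.68 and 6.32 CPM with RU521, a fitted log2 difference of −2.52. Bloc1s4, which encodes a subunit of a complex for lysosome-related organelles, was 18.4, 18.0 and 23.7 CPM against 5.76, 2.65 and 1.25 CPM, a log2 difference of −2.63. Bloc1s4 followed Hes1 through the RU521 replicates as well as through the low knockout sham replicate 3, at 2.50 CPM. The smallest of the 10 differences were those of Eif3j1, a translation initiation factor subunit, at −0.66, and of Gps2, at −0.80. Since likeness was measured over the libraries of this contrast, these differences are no separate evidence.

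**Figure D3:**
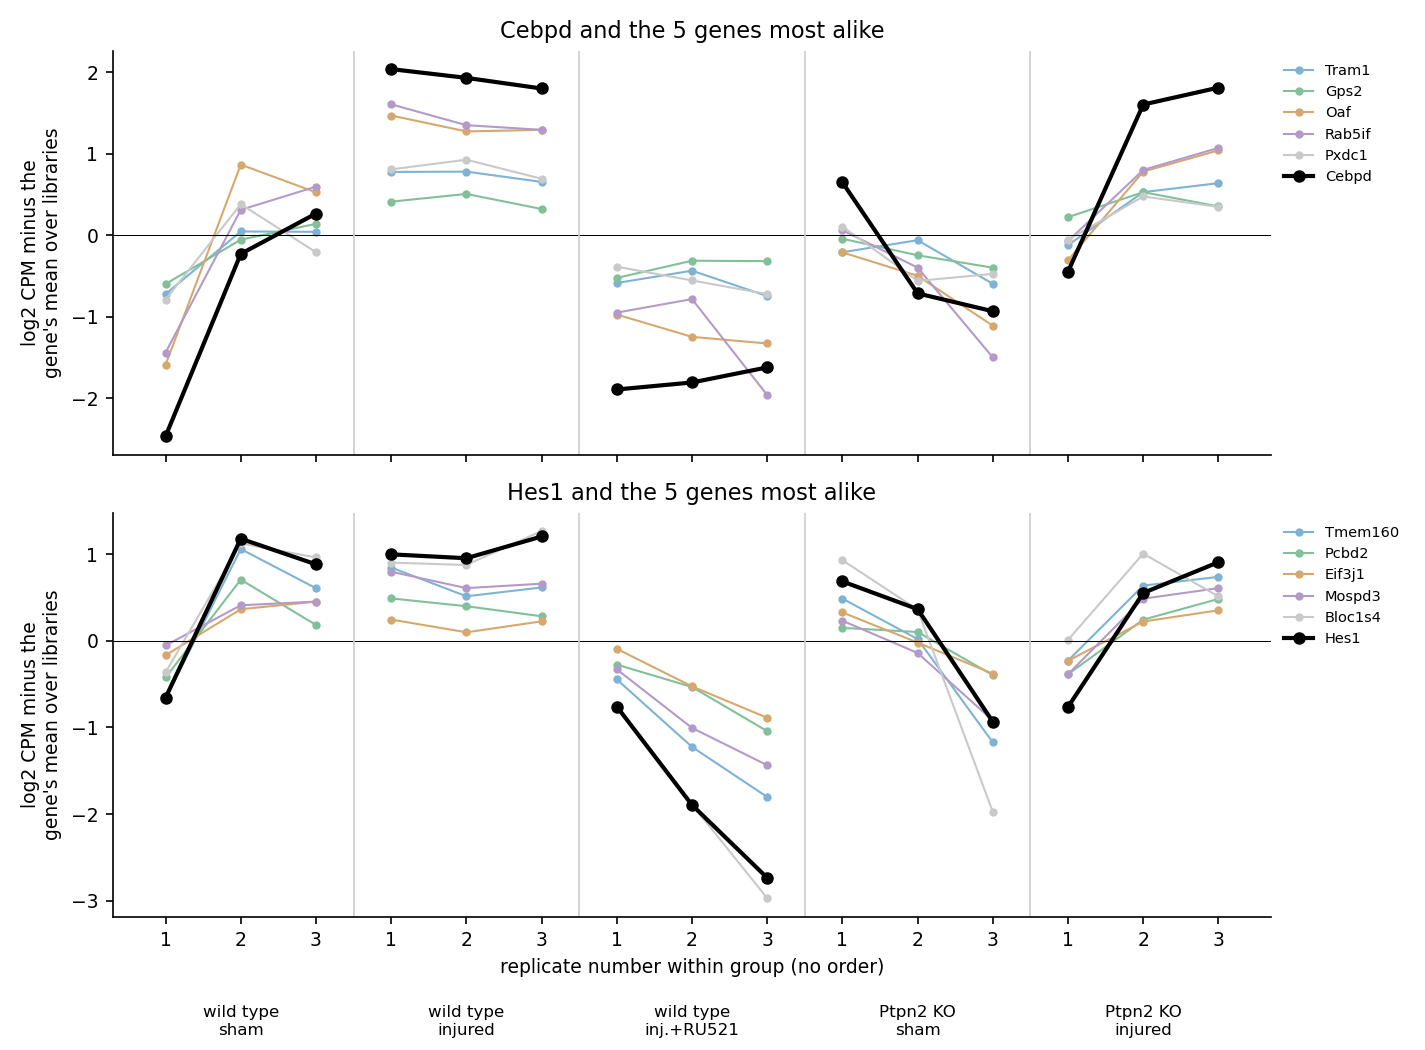
Log2 CPM of Cebpd (top) and Hes1 (bottom), each with its 5 most alike genes, minus each gene's mean over the 15 libraries (vertical axes); libraries are on the horizontal axis by group and replicate number, which has no order, and lines join libraries of a group. Both genes and most of their companions are low in the RU521 libraries and in wild-type sham replicate 1, and Hes1 and all 5 of its companions are lower in knockout sham replicate 3 and injured knockout replicate 1 than in the rest of those groups.

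Partners and regulators of C/EBP proteins were taken from a list. Of its 11 bZIP partners and Tribbles regulators, 3 rose and 1 fell with injury in wild type, and 6 rose and 1 fell with injury in the knockout. Of all genes, 8.6% were called higher and 7.98% lower with injury in wild type, and 6.34% and 4.57% in the knockout. Nfil3, a bZIP repressor, rose in both (log2 1.25 ± 0.27, adjusted p 0.00683, and 1.69 ± 0.27, adjusted p 0.000993, edgeR). With RU521 it was the 1 of 11 that was called, lower at 9.34 than at 17.8 CPM in injured wild type (−0.93 ± 0.26, adjusted p 0.0374, edgeR), next to 4.48% of all genes called lower. By raw p under 0.05 the list gave 8 of 11 in that comparison, and DESeq2 called 4 and limma-voom 8. Cebpe, the granulocyte C/EBP gene, rose from 3.74 to 24.1 CPM with injury in wild type (2.71 ± 0.51, adjusted p 0.00401, edgeR). Batf2 rose from 0.653 to 7.57 CPM with injury in the knockout (3.53 ± 0.53, adjusted p 0.000658, edgeR). The median log2 difference of the list was −0.57 with RU521, 0.37 with injury in wild type and 0.92 with injury in the knockout, against −0.03, 0 and −0.01 over all genes. The RU521 and wild-type injury comparisons share the injured wild-type libraries. Opposite signs between them, here and in the lists below, show nothing on their own.

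Of 14 genes known as C/EBP targets, 12 could be tested, and with RU521 edgeR called 0 of them. In that RU521 comparison 2 had a raw p under 0.05, and DESeq2 called 1 and limma-voom 2. With injury 5 rose and 0 fell in wild type, among them Lyz2, which encodes lysozyme (log2 2.28 ± 0.40, adjusted p 0.00255, edgeR), and Il1rn, which encodes the interleukin-1 receptor antagonist (3.03 ± 0.55, adjusted p 0.00314, edgeR). In the knockout 5 rose and 1 fell, and Saa3, an acute-phase gene, rose from 1.35 to 93.5 CPM (6.11 ± 0.28, adjusted p 7.25e-09, edgeR). The medians were 1.32 and 1.01 with injury and −0.27 with RU521. Of all genes, 8.6% were called higher with injury in wild type, and 6.34% higher and 4.57% lower in the knockout. Lyz2 is a myeloid gene, and macrophage markers rose with injury, 10 of 10 in wild type and 7 of 10 in the knockout. Neutrophil markers rose too, 7 of 7 in wild type (median 2.58) and 4 of 7 in the knockout (median 1.30). These are edgeR calls. For injury in the knockout, raw p under 0.05 gave 9 of 10 macrophage and 7 of 7 neutrophil markers. DESeq2 called 9 and 6 of them, and limma-voom 10 and 7. In RU521 libraries 1 to 3 the target list summed to 981, 3104 and 2127 CPM and the neutrophil markers to 1820, 5631 and 3919 CPM. The part of these cells in the target list was not tested.

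Signals known to switch on Cebpd include gp130 cytokines and glucocorticoids. Of 13 genes of gp130 cytokines and STAT3 signalling, 3 rose with injury in each genotype, with 0 lower. Of all genes, 8.6% were called higher with injury in wild type and 6.34% in the knockout. Socs3, a feedback inhibitor that STAT3 induces, rose from 9.93 to 21.5 CPM in wild type (1.12 ± 0.28, adjusted p 0.0157, edgeR) and from 12.6 to 32.8 CPM in the knockout (1.38 ± 0.28, adjusted p 0.00577, edgeR). With RU521, 0 of 13 were called by edgeR, 4 had a raw p under 0.05, DESeq2 called 1 and limma-voom 3. Stat3 itself was at 344.3 CPM with RU521 and 269.5 CPM in injured wild type (0.35 ± 0.20, adjusted p 0.296, edgeR). Of 18 glucocorticoid-induced genes, 4 were lower with RU521 and 0 higher, next to 4.48% of all genes called lower. They were Sgk1 (−1.07 ± 0.17), a kinase that regulates ion channels, the cell cycle inhibitor Cdkn1a (−0.81 ± 0.14), Sult1a1 (−1.03 ± 0.20) and Errfi1 (−0.72 ± 0.16). The list's median with RU521 was −0.16. By raw p under 0.05 it gave 5 in that comparison, and DESeq2 called 4 and limma-voom 6. With injury 3 of the 18 rose and 0 fell in wild type, and 3 rose and 3 fell in the knockout. Injury in the knockout had 4.57% of all genes called lower. Whether glucocorticoids bear on Cebpd here was not tested.

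Immediate early genes are induced quickly, as Cebpd is. Of 19 tested, 11 rose with injury in wild type and 7 in the knockout, and 0 fell, next to 8.6% and 6.34% of all genes called higher. With RU521, 4 of the 19 were lower and 0 higher: Egr1 (−0.99 ± 0.19), Egr2 (−1.53 ± 0.40), Fos (−0.96 ± 0.27) and Nr4a1 (−0.54 ± 0.16), all transcription factors. Over all genes 4.48% were lower, and 9 of the 19 had a raw p under 0.05, with 6 called by DESeq2 and 10 by limma-voom. The list's median was −0.46. Of these 4, none lay as far from injured wild type as Cebpd, which was chosen for its fall in this contrast, so that order is no result. Egr2 is also a factor of myelinating Schwann cells. A rise with injury in wild type and a fall with RU521 rest on the same injured libraries, so the pair is not separate evidence of a reversal.

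On the Notch side, the ligands and receptors gave no call with RU521 in 9 genes tested by edgeR, 2 had a raw p under 0.05, DESeq2 called 1 and limma-voom 2. Jag1, a Notch ligand, was at 21.9 and 22.6 CPM with and without RU521 (−0.05 ± 0.18, adjusted p 0.906, edgeR). Of 18 genes of signal transduction, 2 were lower and 1 was higher, next to 4.48% and 5.1% of all genes. By raw p under 0.05 that list gave 6, and DESeq2 called 5 and limma-voom 7. Adam10, the protease that makes the first cut in activated Notch, was at 146.6 CPM with RU521 and 309.6 CPM without (−1.08 ± 0.15, adjusted p 0.00128, edgeR), and Adam17 was lower too (−0.62 ± 0.17, adjusted p 0.0362, edgeR). Psen2, a subunit of γ-secretase, was higher (0.69 ± 0.19, adjusted p 0.0317, edgeR). With injury in wild type their log2 differences were 0.85 ± 0.15, 0.70 ± 0.17 and −0.81 ± 0.19; that comparison shares the injured wild-type libraries, so opposite signs show nothing on their own.

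Among relatives of Hes1, the HES and HEY genes and other Notch targets, 1 of 9 tested of 12 was called with RU521, Bhlhe40 (−0.59 ± 0.16, adjusted p 0.0351, edgeR), and the median was 0.12. By raw p under 0.05 the list gave 3 in that comparison, and DESeq2 called 2 and limma-voom 3. Other members of the family fell with injury: Hey1 (−0.65 ± 0.15) and Hes5 (−1.22 ± 0.36) in wild type, and Hey2 (−0.78 ± 0.14), Heyl (−0.89 ± 0.19) and Hes5 (−1.32 ± 0.36) in the knockout. Of all genes, 7.98% were called lower with injury in wild type and 4.57% in the knockout. For injury the list gave 4 and 6 by raw p under 0.05 in wild type and knockout. DESeq2 called 2 and 5, and limma-voom 4 and 5. Of 6 corepressors, Tle1 (1.14 ± 0.22) and Tle4 (0.94 ± 0.22) were higher with RU521. Of 9 genes of ID proteins and BMP targets, Id4 (1.20 ± 0.26) and Smad9 (1.10 ± 0.33) were higher. Over all genes 5.1% were called higher and 4.48% lower with RU521. Of 9 proneural genes, which HES1 represses, only 2 passed the filter, and in this comparison edgeR, DESeq2 and limma-voom called 0, with 0 at a raw p under 0.05. After sham surgery, genotype gave 0 calls by edgeR in the 126 list entries tested over the 11 lists, 24 entries had a raw p under 0.05, DESeq2 called 5 and limma-voom 36. Of the 24, 6 were among the 12 C/EBP targets tested and 9 among the 18 glucocorticoid-induced genes. DESeq2 called 1 and 2 in these lists, and limma-voom 8 and 11. Their median log2 differences were 1.01 and 0.52, against −0.04 over all genes. Wild-type sham replicates 1 and 3 enter these values.

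Cell type markers differed between RU521 and injured wild-type ganglia. In these bulk ganglia fewer cells of a type and less RNA per cell cannot be told apart. Over all genes, 4.48% were called lower with RU521 and 5.1% higher. Markers of myelinating Schwann cells summed to 8055 to 9839 CPM with RU521 and 21690 to 23470 CPM in injured wild type, with 7 of 7 called lower. Fibroblast and mural cell markers summed to 1276 to 1707 against 2915 to 3012 CPM (4 of 8 lower), and endothelial markers to 193.4 to 201.8 against 303.8 to 323.5 CPM (3 of 9 lower). Macrophage markers summed to 169.9 to 366.3 against 463.4 to 670.0 CPM (3 of 10 lower). Red blood cell markers summed to 3201 to 7084 against 10490 to 10600 CPM and adipocyte markers to 8.44 to 15.2 against 20.2 to 45.5 CPM, without overlap, and edgeR called 0 of 5 and 0 of 6. By raw p under 0.05 each list gave 3, while DESeq2 called 1 in each and limma-voom 5 and 4. Sensory neuron markers summed to 5065 to 8381 against 3796 to 4409 CPM, with 5 of 10 higher. Satellite glia (891.6 to 1213 against 930.5 to 1222 CPM) and neutrophil markers (1820 to 5631 against 3322 to 4330 CPM) overlapped. Injured wild type was above all other groups in Schwann cell, fibroblast and mural, and red blood cell sums. In wild-type sham these were 9908 to 16000, 1352 to 2715 and 1168 to 6314 CPM. Macrophage and sensory neuron sums of wild-type sham, 98.98 to 321.4 and 5319 to 8133 CPM, overlapped those of RU521. Its endothelial sums, 229.4 to 311.0 CPM, were above them. The part of the marker differences between RU521 and injured wild type in those of Cebpd and Hes1 was not tested.

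Within the injured knockout group, Cebpd and Hes1 were spread over the libraries. Macrophage and sensory neuron sums lay close together there, while adipocyte sums were spread. Macrophage markers summed to 722.0 to 757.4 CPM, myelinating Schwann cell markers to 10070 to 12740 CPM and sensory neuron markers to 4107 to 4336 CPM in its 3 libraries. Cebpd spanned 7.77 to 37.1 CPM in the same libraries. Adipocyte markers summed to 50.3 CPM in replicate 1, the library low in Cebpd and Hes1, against 23.0 and 25.5 CPM, and Müller glia markers, a list that shares genes with satellite glia, to 6184 against 7859 and 7237 CPM. Replicate 1 also had 11.4% mitochondrial counts, against 17.1% and 16.6%. The part of these in its low values was not tested. The myelin sums of injured knockout and of RU521 ganglia, with upper ends of 12740 and 9839 CPM, were both under those of injured wild type. So were those of wild-type sham and knockout sham, with upper ends of 16000 and 10890 CPM.

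**Figure D4:**
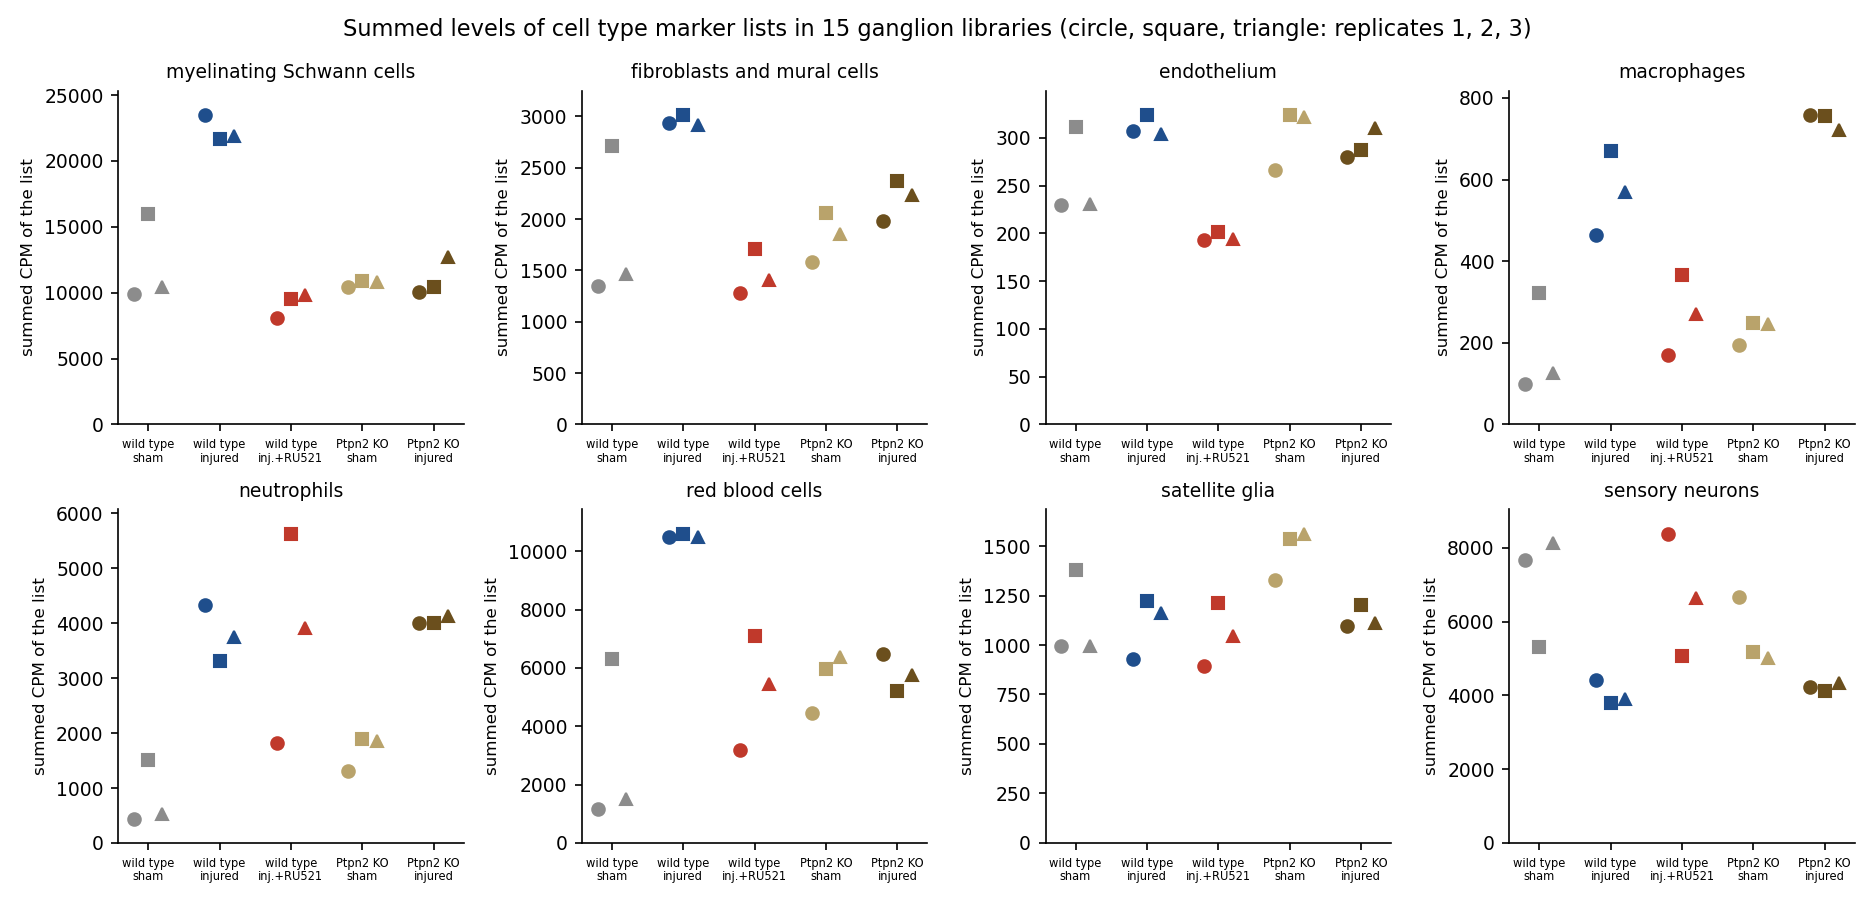
Summed CPM of 8 cell type marker lists (vertical axes, from 0) in the 15 ganglion libraries by group; each symbol is a replicate. Myelinating Schwann cell sums are 8055 to 9839 CPM with RU521, 21690 to 23470 CPM in injured wild type and 9908 to 16000 CPM in wild-type sham. Satellite glia and neutrophil sums overlap between RU521 and injured wild type.

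In picked retinal ganglion cells Cebpg was the 1 gene of the 5 detected in 12 of 12 libraries, from 9.96 to 40.0 CPM. Cebpb had counts in 11 of 12, Cebpd in 9, Hes1 in 6 and Cebpa in 1, with 10 counts, so Cebpa did not pass the filter. The 12 libraries spread widely, with a biological coefficient of variation of 1.27 against 0.262 in ganglia. This limits what they can show.

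Cebpd was highest in knockout cells given IFNγ, at 35.1, 7.46 and 10.8 CPM, against 0, 1.06 and 3.47 CPM in wild-type cells given IFNγ. These 2 groups did not overlap, but the fitted log2 difference of 3.55 ± 2.58 had an adjusted p of 1 in edgeR's test. In PBS groups Cebpd read 0.383, 0 and 5.16 CPM in wild type and 0, 0.241 and 8.49 CPM in the knockout. A library at 0 allows a level of up to 0.175 to 0.201 CPM from 3 counts, before scaling and for counting error only. Cebpg did not overlap between the genotypes with IFNγ either, at 26.8, 36.5 and 28.3 CPM in the knockout and 17.8, 14.7 and 24.3 CPM in wild type (0.69 ± 0.63, adjusted p 1, edgeR). In edgeR's test the raw p was 0.19 for Cebpd and 0.292 for Cebpg. The share of all genes without overlap was not counted, so nothing is read from these ranges. Hes1 was highest at 12.7 CPM in wild-type PBS replicate 3 and was listed at 0 in the other PBS wild-type libraries.

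Of the 4 members tested, 0 were called by edgeR in any of the 4 retinal comparisons, 0 had a raw p under 0.05, and DESeq2 and limma-voom called 0. Over all 13487 genes edgeR called 0% for IFNγ in wild type, for IFNγ in the knockout and for genotype with IFNγ, and 0.0222% for genotype with PBS. In those comparisons 542, 879, 668 and 1281 genes had a raw p under 0.05, and DESeq2 called 204, 316, 224 and 519.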

How the data were processed

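Gene counts of 15 ganglion and 12 retinal libraries were used as deposited by the authors. The submitters' processing notes name Trim Galore, STAR and GRCm38 (mm10), with no versions. Per the file headers, featureCounts 2.0.1 counted the ganglion reads on Ensembl release 101, at a mapping quality of at least 10 and without strand. Libraries were made with SMART-Seq v4 and Smart-seq2, per the labels' protocols. No source used here names the retinal counter. The last retinal line, with no gene name, held 50% of the file total and was left out. The gene length in bp that the authors deposited in the ganglion table was used for TPM, computed here.

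Each experiment was fitted over all its groups by edgeR 4.0.16 under R 4.3.3 (TMM scaling; genes kept by filterByExpr at a minimum count of 10 and total of 15; robust quasi-likelihood test; Benjamini-Hochberg threshold 0.05). SEs were derived from the fitted log2 value and its F statistic. Alternatives were DESeq2 1.42.0 (and its size factors), limma-voom 3.58.1 with sample quality weights, and no filter. Others were only the groups compared, a replicate block and leaving out each library. A covariate for the number of genes detected, and leaving out wild-type sham replicates 1 and 3, were chosen after seeing the data. The edgeR fit was also run on simulated counts for injury in the knockout and for IFNγ in wild-type retinal cells. That simulation held no deviant libraries such as wild-type sham replicates 1 and 3, so it does not show how the fit handles them.

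The members and lists were chosen with earlier results of these data known. Named genes were the 5 members, the 5 genes most correlated with each of Cebpd and Hes1 (log2 CPM, prior count 2, mean of at least 5 CPM, without predicted genes), and up to 4 called genes of a list by smallest p, or its 2 most abundant where none was called. Replicate numbers in the labels were not taken as pairs.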

Additional observations from a re-analysis of the deposited data

How the results depend on the processing

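Cebpd and Hes1 were lower with RU521 under all 13 alternatives each, at −3.78 to −3.54 and −3.54 to −2.27; limma-voom gave −3.54 for both, and leaving out a library gave −3.77 to −3.62 and −3.31 to −2.27. Other values are from edgeR unless a tool is named, and the cause of a change was not tested. For knockout against wild type after sham, limma-voom turned Cebpb (0.85) and Cebpd (−0.09), a replicate block turned Cebpb (0.14), and with only sham replicate 2 Cebpa was −0.43 and Cebpg −0.07. Leaving out a library gave −0.57 to 1.25 for Cebpb and −0.39 to 0.84 for Cebpd. For injury in the knockout it gave −0.20 to 0.50 for Cebpb and −0.18 to 0.53 for Hes1, and the detected genes covariate gave −0.08 for Cebpb.

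Numbers of genes called were less stable. With only sham replicate 2, that lone library is assumed to vary like the other groups. With RU521, 1774 became 2892 (DESeq2), 6186 (limma-voom) and 476 to 2727 without a library (lowest without injured wild-type replicate 2, highest without RU521 replicate 2). Injury in wild type, 3070, became 9257 (limma-voom), 1702 (only the groups compared), 849 (detected genes covariate), 1586 (only sham replicate 2) and 1240 to 6513 without a library (sham replicates 3 and 2). Injury in the knockout, 2021, became 4412 (limma-voom), 4102 (only the groups compared), 3070 (covariate) and 869 to 1388 without a library. Genotype after sham, 25, became 596 (no filter), 259 (DESeq2), 3008 (limma-voom), 2 (only the groups compared), 192 (covariate), 1371 (only sham replicate 2) and 2 to 974 without a library (knockout sham replicate 2, wild-type sham replicate 2). Genotype after injury, 407, became 711 (no filter), 791 (DESeq2), 2101 (limma-voom), 1877 (only the groups compared), 1373 (covariate) and 194 to 293 without a library. In retinal cells IFNγ in wild type, 0, became 2 (no filter), 204 (DESeq2) and 0 to 1 without a library. IFNγ in the knockout, 0, became 2, 316, 1 (limma-voom) and 0 to 3. Genotype with PBS, 3, became 23, 519, 0 (only the groups compared) and 0 to 11. Genotype with IFNγ, 0, became 224 (DESeq2) and 3 (limma-voom).

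No comparison had same-numbered libraries that all correlated above 0.1 in their deviations from group means. For genotype after sham these correlations were 0.208, 0.169 and −0.116. Such a check shows no pairing by number but cannot exclude it. With a replicate block the counts were 2134 (RU521), 3525, 2478, 71 and 439 in ganglia, in the order above, and 0 in each retinal comparison, 3 without it for genotype with PBS.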

Other observations

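Cebpd and Hes1 were both lowest in injured knockout replicate 1 and in knockout sham replicate 3 of their groups, and other genes with this pattern were listed after these values had been seen. Among 11792 genes with a mean of at least 5 CPM, 539 (4.57%) were lower by a log2 of over 1 with RU521 than in injured wild type. In knockout sham replicate 3 against replicate 1, 123 genes (1.04%) were lower by that much, and in injured knockout replicate 1 against replicates 2 and 3, 59 genes (0.5%). All 3 conditions were met by 14 genes, and 0 genes were higher in all 3. The conditions were set from Cebpd and Hes1, so their own place among the 14 is no result, and knockout sham replicate 2, in which Cebpd was close to replicate 3, was not used. The others included Phlda3, Lrp11, Fnta, Copz2, Mgat2, Selenoo and Ift57. Phlda3 is a target of p53, Fnta encodes a farnesyltransferase subunit and Copz2 a subunit of the COPI vesicle coat. Copz2 was lower by a log2 of 2.57 with RU521, by 1.20 in the knockout sham library and by 1.16 in the injured knockout library. Mitochondrial counts made up 11.4% of injured knockout replicate 1 against 17.1% and 16.6% in replicates 2 and 3. In knockout sham they made up 12.8% of replicate 1 against 18.3% and 18.6% in replicates 2 and 3. Their part in the pattern was not tested.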
